A study of Homo sapiens with 6 samples.

Results

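The JNK and p38 branch of the MAPK cascade was examined in RD cells after TAK1 knockdown through the 9 genes that encode its MAP2Ks and MAPKs: MAP2K4, MAP2K7, MAP2K3, MAP2K6, MAPK8, MAPK9, MAPK14, MAPK11 and MAPK12. These genes were taken from the counts by symbol, 9 of 58735 rows, and all 9 passed the filter on low counts that left 15935 tested genes. RD is an established cell line of embryonal rhabdomyosarcoma (ERMS). All cultures were transduced with lentiviral particles, which carried scrambled shRNA in 3 control cultures and TAK1 shRNA in 3 knockdown cultures, and the study used a single TAK1 shRNA construct for RNA-seq, so an effect of the knockdown and one of the construct cannot be told apart. The sources used here do not give the time between transduction and RNA extraction. Nothing in the labels says that the 3 samples of a group were started as separate cultures on separate days. The p-values thus rest on the spread between these samples, which may in part be technical. In the fit used, each gene's spread was combined with that of the other tested genes.

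TAK1, encoded by MAP3K7, is a MAP3K that phosphorylates MAP2Ks in response to cytokines, growth factors and stress. The MAP2Ks MKK4 (MAP2K4) and MKK7 (MAP2K7) phosphorylate the c-Jun N-terminal kinases JNK1 (MAPK8) and JNK2 (MAPK9), and MKK3 (MAP2K3) and MKK6 (MAP2K6) phosphorylate the p38 kinases p38α (MAPK14), p38β (MAPK11) and p38γ (MAPK12), with MKK4 able to act on p38 as well. In skeletal muscle, p38 signaling is known for its part in the onset of myoblast differentiation, and p38γ is enriched in this tissue. The counts report the amount of mRNA and not the phosphorylation by which these kinases are switched on.

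The bases just upstream of the annotated start are shown for MAP2K7, MAP2K4 and MAPK12, the 3 members that rose in knockdown cells. They were taken from RefSeq, GRCh38.p14, are written 5′ to 3′ along the strand of the gene, and stop before the first annotated exon. Capitals mark an E-box (CANNTG), the core of a cAMP response element (TGACG, which factors such as ATF2 bind) or an AP-1 site (TGANTCA). Each was sought on both strands. Myogenic factors such as MYOD1 bind some of the elements that the E-box letters cover, not all.
MAP2K7 (chr19:7903627-7903842, plus strand): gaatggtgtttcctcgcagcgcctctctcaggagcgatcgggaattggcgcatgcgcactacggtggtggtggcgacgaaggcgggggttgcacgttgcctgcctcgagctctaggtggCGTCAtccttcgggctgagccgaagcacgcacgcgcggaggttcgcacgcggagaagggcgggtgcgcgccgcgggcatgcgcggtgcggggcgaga
MAP2K4 (chr17:12020627-12020828, plus strand): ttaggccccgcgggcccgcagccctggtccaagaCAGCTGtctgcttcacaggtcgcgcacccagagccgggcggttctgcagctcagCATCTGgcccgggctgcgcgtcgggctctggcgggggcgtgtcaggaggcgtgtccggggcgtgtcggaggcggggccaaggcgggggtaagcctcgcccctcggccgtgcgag
MAPK12 (chr22:50261717-50261933, minus strand): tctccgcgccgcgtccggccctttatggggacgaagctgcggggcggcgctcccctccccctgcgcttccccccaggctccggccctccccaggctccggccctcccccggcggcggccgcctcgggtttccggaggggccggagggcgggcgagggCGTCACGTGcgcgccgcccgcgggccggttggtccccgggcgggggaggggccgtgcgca

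In the window of MAP2K7 capitals mark 1 cAMP response element core on the opposite strand. In that of MAP2K4 they mark 2 E-boxes (CAGCTG and CATCTG). In that of MAPK12 they mark 1 E-box (CACGTG) that overlaps 1 cAMP response element core, also on the opposite strand. Over the 250 bases upstream of each RefSeq start, the 9 members had 13 windows. An E-box was found in 4 of the 13 windows, against 61.8% of all 35116 windows in the RefSeq table. These were windows of MAP2K4, MAPK12, MAPK9 and MAPK11, of which MAPK9 and MAPK11 did not rise in knockdown cells. A cAMP response element core was found in 4, against 21.2% of all windows. They belonged to MAP2K7, MAPK12, MAP2K3 and MAPK8, of which MAP2K3 and MAPK8 did not rise. An AP-1 site was found in 1, a window of MAP2K3, against 6.57% of all windows. These matches are descriptions of the letters in the windows, and binding was not measured.

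Total counts per library ran from 28839898 to 34469323. MAP3K7 served as the check of the labels, with 77.9, 76.5 and 77.6 CPM (counts scaled to the normalised library size) in controls and 30.5, 33.6 and 29.9 CPM in the knockdown cultures. Its mean was 77.3 ± 0.743 CPM (SD, n = 3) in control cultures and 31.3 ± 2.00 CPM (SD, n = 3) in knockdown cultures, on the log2 scale a change of -1.30 (adjusted p = 4.45e-14). Of the myogenic markers MYOD1, MYOG, MYF5, DES, MYH3 and CHRNA1, MYF5 had a count of 0 in every library and the other five were expressed at means above 100 CPM in both groups. MYOD1 (0.37 on the log2 scale) and MYOG (0.27) rose and CHRNA1 (-0.40) fell in knockdown cultures, and the part of this shift in the results was not tested. Markers of blood, endothelial and epithelial cells summed, each list by itself, to at most 3, 5 and 16 counts in any library, and 2 of 4, 1 of 3 and 1 of 3 of them were at 0 throughout. Genes were called changed where the adjusted p was under 0.05 and the log2 fold change was 0.25 or more in size.

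Of the 9 members, 3 rose and 1 fell in TAK1 knockdown cells. The MAP2Ks of JNK, MAP2K4 and MAP2K7, both rose, while the JNK genes MAPK8 and MAPK9 were lower by less than the fold threshold. The p38 genes differed among themselves, with MAPK12 higher, MAPK11 lower and MAPK14 near 0 on the log2 scale. Of all genes tested, 11.8% were called higher and 11.3% lower, 23.1% in either direction, against 4 of the 9 members. With a fold threshold of 0.5 it was 0 of 9, against 8.88% of all genes. On the adjusted p alone, without the fold threshold, the count was 6 of 9, against 33.3% of all genes. The CPM values of the groups did not overlap for 5 of the 9 members, against 43.9% of all genes. The median log2 fold change of the members was 0.0071, against 0.018 over all genes. In these bulk cultures, fewer cells expressing a gene and less mRNA per cell cannot be told apart.

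**Figure D1:**
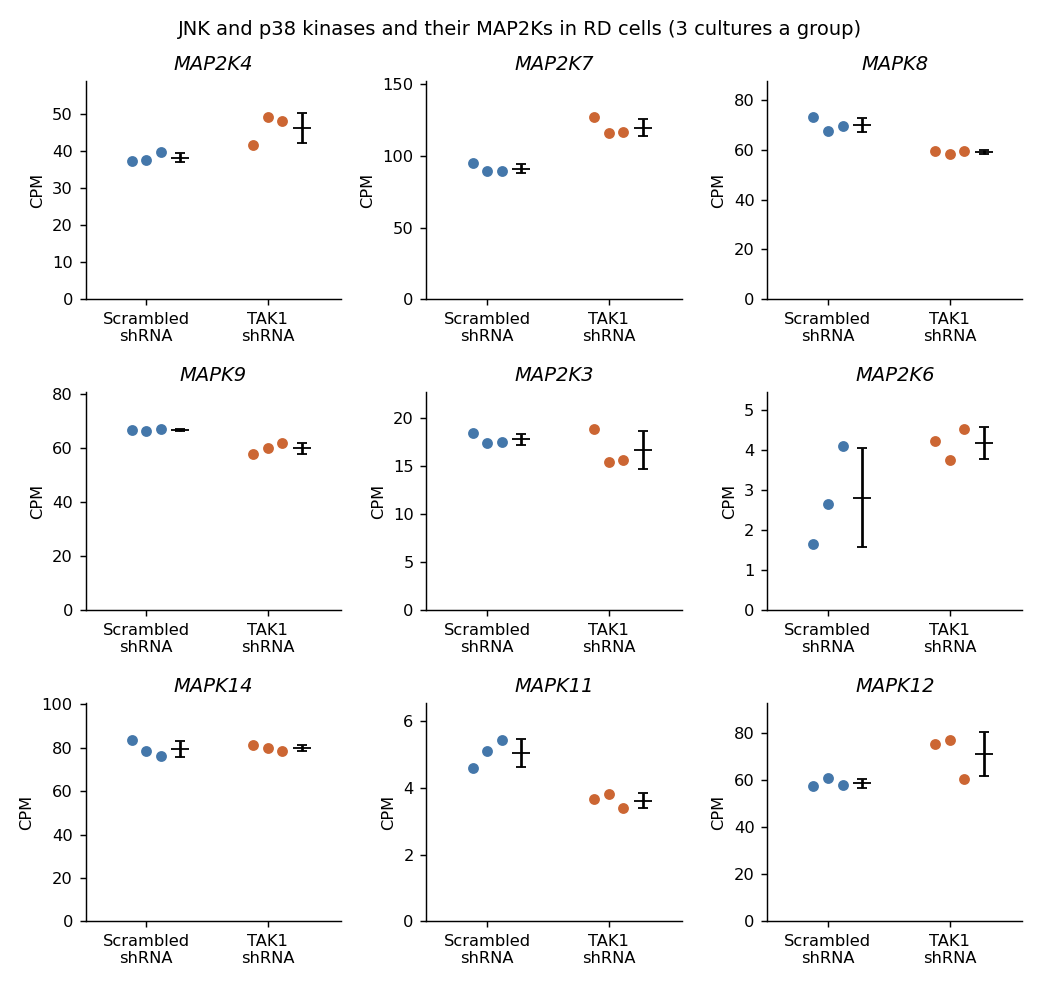
Expression of the 9 members in CPM (vertical axes, each from 0) in 3 scrambled shRNA and 3 TAK1 shRNA cultures, where each point is 1 culture and the bar beside the points is the mean with its SD. The groups are apart for MAP2K4, MAP2K7, MAPK8, MAPK9 and MAPK11 and overlap for the other 4.

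MAP2K7, the MAP2K dedicated to JNK, lies on chromosome 19 from 7903843 to 7914478 in GRCh38 (ENSG00000076984.18), and its upstream bases are shown above. It reached 94.9, 89.4 and 89.3 CPM in controls and 126.9, 115.7 and 116.7 CPM in the knockdown cultures. Every knockdown culture was above every control culture. The means were 91.2 ± 3.20 and 119.8 ± 6.21 CPM (SD, n = 3), which on the log2 scale is a change of 0.39 (SE 0.052) with an adjusted p = 1.75e-06 in the quasi-likelihood test of edgeR, adjusted by Benjamini-Hochberg over all tested genes. It ranged from 0.35 to 0.42 when single cultures were left out and the call held. An antisense transcript, ENSG00000268149, overlaps 8.51% of the exonic bases of MAP2K7.

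MAP2K4, which can act on both JNK and p38, lies on chromosome 17 from 12020829 to 12143830 (ENSG00000065559.15). Its values were 37.4, 37.7 and 39.6 CPM in controls and 41.7, 49.1 and 48.2 CPM in the knockdown cultures. The groups did not overlap, although replicate 1 of the knockdown cultures came close to the highest control. The means were 38.3 ± 1.21 and 46.3 ± 4.07 CPM (SD, n = 3), on the log2 scale a change of 0.28 (SE 0.069, adjusted p = 0.00267, same test). Without replicate 2 or replicate 3 of the knockdown cultures the log2 fold change was 0.23 (adjusted p = 0.0158) or 0.24 (adjusted p = 0.0215), less than the fold threshold. The pseudogene MAP2K4P1 had 2 counts over all 6 libraries, and 4.70% of the 75-base windows in MAP2K4 exons occur elsewhere in the genome.

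Together the MAP2Ks of JNK summed to 129.4 ± 2.65 CPM in control and 166.1 ± 2.13 CPM in knockdown cultures (SD, n = 3). The ratio of MAP2K7 to MAP2K4 was 2.54, 2.37 and 2.25 in control and 3.05, 2.36 and 2.42 in knockdown cultures, so the balance of the pair overlapped between the groups while both genes rose.

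The kinases downstream of them did not rise. MAPK8, which encodes JNK1, lies on chromosome 10 from 48306639 to 48439360 (ENSG00000107643.17) and stood at 73.1, 67.5 and 69.6 CPM in controls and 59.5, 58.3 and 59.6 CPM in the knockdown cultures. All knockdown cultures lay below all control cultures. The means were 70.1 ± 2.82 and 59.1 ± 0.760 CPM (SD, n = 3), on the log2 scale a change of -0.24 (SE 0.055, adjusted p = 0.00122), which passed the threshold on p but not that on the fold. It passed both without replicate 2 of the control cultures (-0.27), without replicate 3 of the knockdown cultures (-0.26) and with no filter on low counts (-0.25).

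MAPK9, which encodes JNK2, lies on chromosome 5 from 180233143 to 180292099 (ENSG00000050748.18). It reached 66.8, 66.6 and 67.4 CPM in controls and 57.9, 60.2 and 61.9 CPM in the knockdown cultures. These groups were also apart, and the control cultures were close to one another. The means were 66.9 ± 0.419 and 60.0 ± 1.97 CPM (SD, n = 3), on the log2 scale a change of -0.16 (SE 0.055, adjusted p = 0.0297) with a 95% interval from -0.27 to -0.044. The adjusted p exceeded 0.05 when any 1 control was left out (0.072 to 0.0979), and likewise for knockdown replicates 1 (0.0664) and 2 (0.053). Scaled by library size alone, the change was -0.11 (adjusted p = 0.129), and over the alternatives the adjusted p ran from 0.0124 to 0.129.

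The JNK genes summed to 137.0 ± 2.91 CPM in control and 119.1 ± 2.10 CPM in knockdown cultures (SD, n = 3). Per kilobase of the canonical transcript, MAPK8 made up 46.4 ± 0.986% of the pair in control and 44.9 ± 0.887% in knockdown cultures (SD, n = 3). The third JNK gene, MAPK10, which is known from neurons and heart, had 1 to 8 counts in each library and was not tested.

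**Figure D2:**
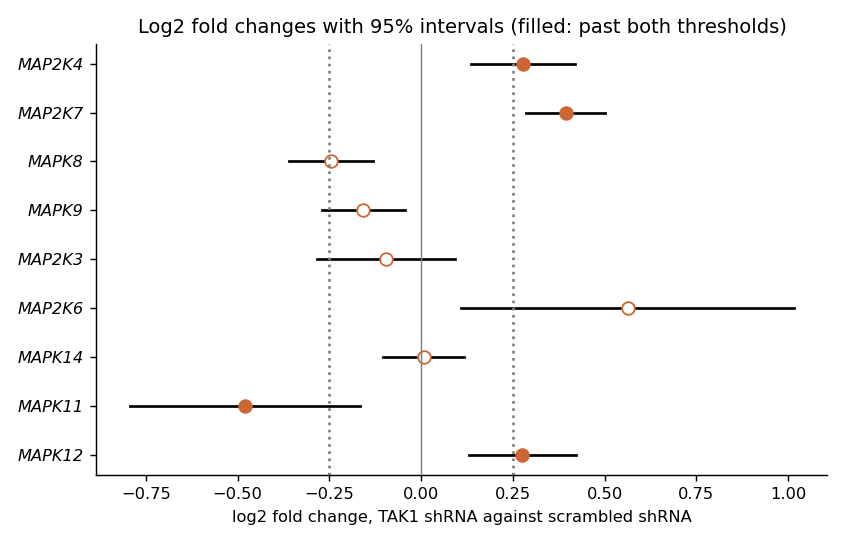
Log2 fold change of each member in TAK1 shRNA against scrambled shRNA cultures (horizontal axis, 3 cultures a group) with its 95% interval from edgeR's quasi-likelihood test, filled where both thresholds were passed and with dotted lines at the fold threshold. MAP2K4, MAP2K7 and MAPK12 are filled above the upper line and MAPK11 below the lower one, while MAP2K6 lies above the upper line at 0.56, unfilled, with the widest interval.

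The MAP2Ks of p38 did not pass the thresholds. MAP2K3 lies on chromosome 17 from 21284672 to 21315232 (ENSG00000034152.20) and had 18.5, 17.4 and 17.5 CPM in controls and 18.9, 15.5 and 15.7 CPM in the knockdown cultures. Replicate 1 of the knockdown cultures was the highest of all 6 and the other two were the lowest, so the groups overlapped. The means were 17.8 ± 0.592 and 16.7 ± 1.94 CPM (SD, n = 3), on the log2 scale a change of -0.095 with a 95% interval from -0.28 to 0.092 (adjusted p = 0.464). Of the 75-base windows in MAP2K3 exons, 10.1% occur elsewhere in the genome, the highest share among the members, and the part of such reads in its counts was not tested.

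MAP2K6 lies on chromosome 17 from 69414697 to 69553865 (ENSG00000108984.16). It was lowly expressed, with 47, 84 and 127 counts in the control libraries and 124, 133 and 150 in the knockdown libraries. These correspond to 1.65, 2.67 and 4.12 CPM in control and 4.24, 3.77 and 4.54 CPM in knockdown cultures. The control cultures spread over a wide range, and the highest of them exceeded the lowest knockdown culture. The means were 2.81 ± 1.24 and 4.18 ± 0.393 CPM (SD, n = 3), on the log2 scale a change of 0.56 (SE 0.22) with a 95% interval from 0.11 to 1.02 (adjusted p = 0.0512), which missed the threshold on p. Without replicate 3 of the control cultures it was 0.94 (adjusted p = 0.0023) and without replicate 1 it was 0.30 (adjusted p = 0.289), and over all alternatives the log2 fold change ran from 0.30 to 0.94 and the adjusted p from 0.0023 to 0.289. MAP2K6 passed both thresholds in 7 of 16 alternatives, among them limma voom (0.64, adjusted p = 0.0345).

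MAP2K6 had the largest absolute log2 fold change of the members. Among 13476 tested genes that averaged 1 CPM or more, those whose log2 CPM followed it most closely over the 6 libraries included IFT46, with a Pearson correlation of 0.997, and AC005288.1 at 0.996. IFT46 encodes a subunit of the intraflagellar transport machinery of the cilium. IFT46 and AC005288.1 changed by 0.20 and 0.11 on the log2 scale, less than MAP2K6 at 0.56. Like MAP2K6, IFT46 rose from control replicate 1 to 3 (18.2, 21.1 and 23.5 CPM). The 6 points share 2 groups and their libraries, and the highest correlations were picked from 13476 genes, so these values describe likeness only.

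The p38 genes moved apart. MAPK12 and MAPK11 are neighbours on the minus strand of chromosome 22, separated by 1996 bases, and changed in opposite directions. MAPK12, which encodes p38γ, spans 50245450 to 50261716 (ENSG00000188130.14) and reached 57.5, 61.0 and 57.9 CPM in controls and 75.6, 77.3 and 60.7 CPM in the knockdown cultures. Replicates 1 and 2 of the knockdown cultures were above all controls, whereas replicate 3 lay within the control range. The means were 58.8 ± 1.92 and 71.2 ± 9.14 CPM (SD, n = 3), on the log2 scale a change of 0.28 (SE 0.071, adjusted p = 0.00368). Without replicate 1 or replicate 2 of the knockdown cultures it was 0.23 or 0.21, under the fold threshold, and without replicate 3 it was 0.37. Annotated exons of other genes overlap 29.7% of the exonic bases of MAPK12, those of HDAC10 on the same strand and of ENSG00000288871 on the other. HDAC10 had 1.44 ± 0.600 CPM in control and 1.81 ± 0.568 CPM in knockdown cultures (SD, n = 3), on the log2 scale a change of 0.31 (adjusted p = 0.47), and the part of shared reads in the MAPK12 counts was not tested.

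MAPK11, which encodes p38β, spans 50263713 to 50270767 (ENSG00000185386.15). Its counts were low, at 131, 161 and 168 in the control libraries and 107, 135 and 112 in the knockdown libraries, or 4.61, 5.11 and 5.45 CPM and 3.66, 3.82 and 3.39 CPM. Every knockdown culture was below every control culture on the CPM scale. The means were 5.06 ± 0.424 and 3.63 ± 0.217 CPM (SD, n = 3), on the log2 scale a change of -0.48 (SE 0.15, adjusted p = 0.0163). The call did not hold without replicate 2 (-0.47, adjusted p = 0.0514) or replicate 3 (-0.42, adjusted p = 0.0791) of the control cultures.

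MAPK14, which encodes the widely expressed p38α, lies on chromosome 6 from 36027782 to 36111236 (ENSG00000112062.12). It stood at 83.8, 78.4 and 76.4 CPM in controls and 81.3, 79.8 and 78.7 CPM in the knockdown cultures, with all knockdown values inside the control range. The means were 79.5 ± 3.80 and 79.9 ± 1.31 CPM (SD, n = 3), on the log2 scale a change of 0.0071 with a 95% interval from -0.10 to 0.12 (adjusted p = 0.937) which lay within the fold threshold on both sides. The fourth p38 gene, MAPK13, is known mainly from epithelia and had 11 to 28 counts in each library, with a change of 0.30 on the log2 scale and a 95% interval from -0.49 to 1.09 (adjusted p = 0.599).

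The ratio of MAPK12 to MAPK11 was 12.5, 11.9 and 10.6 in the control cultures and 20.7, 20.2 and 17.9 in the knockdown cultures, without overlap. The ratio of MAPK12 to MAPK14 was 0.686, 0.777 and 0.757 in control and 0.93, 0.968 and 0.771 in knockdown cultures, where replicate 3 of the knockdown cultures fell within the control range. The summed p38 genes reached 143.4 ± 3.22 CPM in control and 154.7 ± 10.4 CPM in knockdown cultures (SD, n = 3).

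As single values in the exact permutation test over the 6 cultures, two-sided on log2 CPM, MAP2K4, MAP2K7, MAPK8, MAPK9 and MAPK11 each gave p = 0.1, the smallest that 3 against 3 cultures allows, so this test cannot pass 0.05. MAPK12 and MAP2K6 gave 0.2, MAP2K3 gave 0.4 and MAPK14 gave 0.9 in the same exact test.

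**Figure D3:**
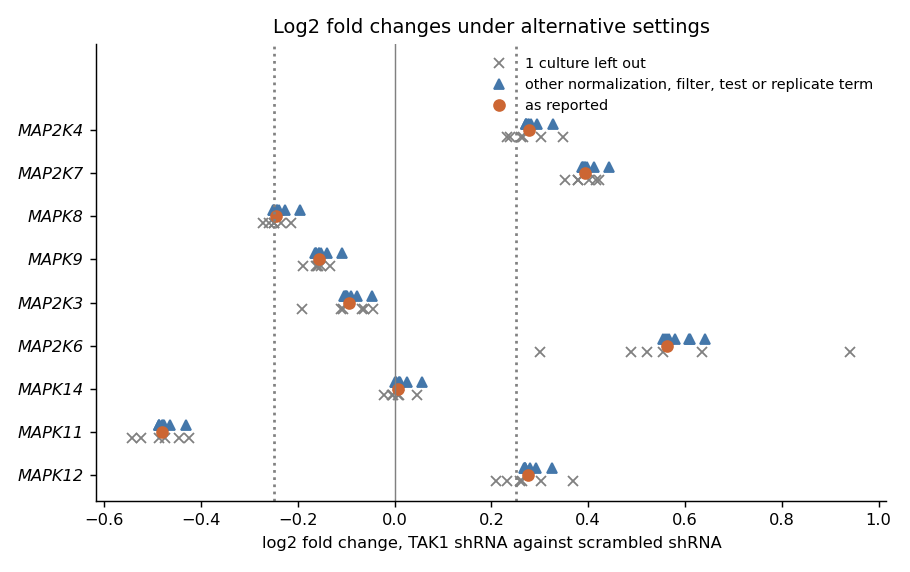
Log2 fold change of each member (horizontal axis) as reported, with 1 culture left out, and with another normalization, filter, test or replicate term, with dotted lines at the fold threshold. MAP2K7 stays above 0.25 throughout, whereas MAP2K4 and MAPK12 cross below it without some of the knockdown cultures and MAP2K6 ranges from 0.30 to 0.94.

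Levels were compared between the members per kilobase of the canonical GENCODE transcript. In control cultures the order was MAPK12 at 33.1 ± 1.08, MAP2K7 at 27.01 ± 0.949, MAPK14 at 18.8 ± 0.901, MAPK9 at 13.9 ± 0.0870, MAPK8 at 12.1 ± 0.485, MAP2K4 at 10.1 ± 0.319, MAP2K3 at 7.88 ± 0.262, MAPK11 at 2.09 ± 0.175 and MAP2K6 at 0.210 ± 0.0925 CPM per kilobase (SD, n = 3), and no neighbours in this order overlapped. In knockdown cultures MAPK12, at 40.02 ± 5.14 CPM per kilobase, overlapped MAP2K7, at 35.5 ± 1.84. MAP2K4 moved above MAPK8, to 12.3 ± 1.08 against 10.2 ± 0.131 CPM per kilobase, and overlapped MAPK9, at 12.5 ± 0.411 (SD, n = 3).

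The place of MAPK12 depends on the length that is used. Its canonical transcript has 1778 bases, whereas its merged annotated exons, which include the stretch shared with HDAC10, have 9315. Per kilobase of merged exons, a scale chosen after the data were seen, MAPK12 stood at 6.31 ± 0.206 CPM in control cultures, the sixth of the 9, below MAP2K7 at 17.7, MAPK14 at 11.8, MAPK9 at 7.47, MAPK8 at 7.24 and MAP2K4 at 6.70. Among the p38 genes MAPK12 made up 61.2 ± 1.32% of the level in control and 66.1 ± 2.67% in knockdown cultures by canonical length, and 31.6 ± 1.12% and 36.6 ± 2.68% by merged exon length (SD, n = 3). On both scales MAPK11 and MAP2K6 had the lowest levels of the members in both groups.

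**Figure D4:**
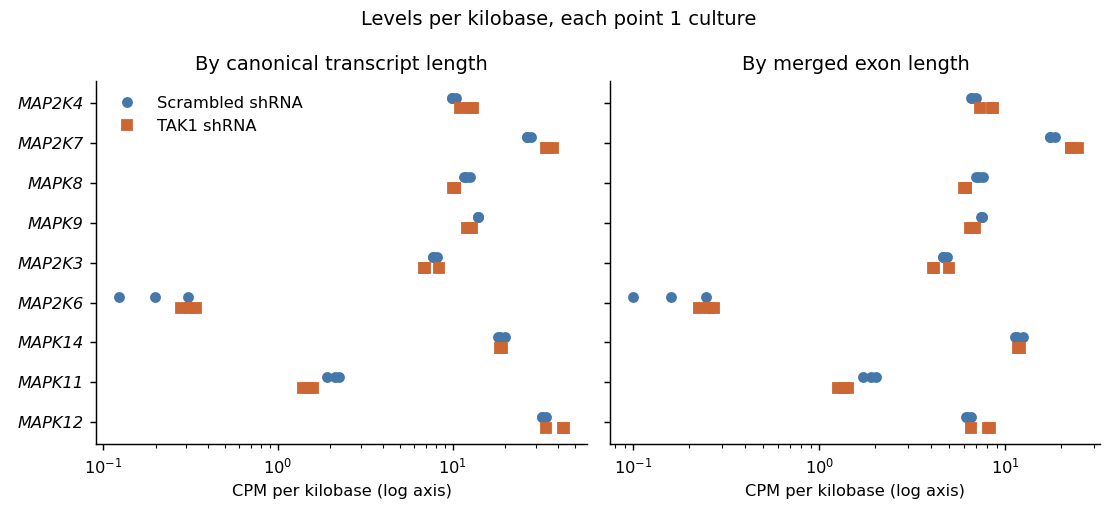
Level of each member in CPM per kilobase (horizontal log axes) by canonical transcript length and by merged exon length, where each point is 1 culture (circles for scrambled shRNA, squares for TAK1 shRNA). MAPK12 is highest in the first panel and sixth among control cultures in the second, and MAP2K6 is lowest in both.

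The members were then set beside 46 other genes of the pathway, of which 43 were tested. Of these, 10 rose and 5 fell, against 11.8% and 11.3% of all genes. Their median log2 fold change was 0.054, against 0.018 over all genes. Among scaffolds, which hold the kinases of a cascade together, 3 of 7 rose and 0 fell, against the same shares. SPAG9, named after its values were seen, passed only the threshold on p (-0.21, adjusted p = 0.00748 in the edgeR test). MAPK8IP1, the JNK scaffold JIP1, rose from 49.7 ± 2.87 to 71.6 ± 7.93 CPM (SD, n = 3), on the log2 scale a change of 0.53 (adjusted p = 1.69e-06). MAPK8IP3, the scaffold JIP3, rose by 0.47 and SH3RF1, the scaffold POSH, rose by 0.45 on the log2 scale. Of the 75-base windows of MAPK8IP1 exons, 13.5% occur elsewhere in the genome.

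The ERK branch and the atypical MAPKs held 2 genes that rose among 9 tested, against 11.8% of all genes. MAP2K1, which encodes the ERK activator MEK1, fell from 728.4 ± 5.61 to 359.8 ± 7.32 CPM (SD, n = 3), on the log2 scale a change of -1.02 (adjusted p = 1.94e-15). MAP2K5, the activator of ERK5, rose by 0.55 and MAPK15 rose by 1.15, the latter from 6.87 ± 1.33 to 15.2 ± 4.87 CPM (SD, n = 3). Exons of other genes on the opposite strand, among them SNAPC5, overlap 20.5% of the exonic bases of MAP2K1.

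Of the kinases that p38 activates, 1 of 7 rose, against 11.8% of all genes, namely MKNK2, at 0.45 on the log2 scale. MAPKAPK2, named after its values were seen, passed only the threshold on p (-0.15, adjusted p = 0.0164 in the edgeR test). Of the nuclear substrates, 2 of 10 rose and 0 fell, against 11.8% and 11.3% of all genes. The 2 were JUND at 0.54 and ATF7 at 0.26, while JUN, named after its values were seen, had a value of 0.072 (adjusted p = 0.356). ELK4, likewise named afterwards, passed only the threshold on p (-0.248, adjusted p = 0.00109 in the edgeR test). Of the phosphatases that act on JNK and p38, 2 of 9 rose and 3 fell, against the same shares of all genes. DUSP8 (0.58) and DUSP16 (0.54), both known to dephosphorylate JNK and p38, rose, whereas DUSP10 (-0.54), a phosphatase of the same kind, and PPM1B (-0.39) fell. DUSP2 (-0.28), named after its values were seen, also fell. The level of DUSP8 was low, at 3.25 ± 0.530 CPM in control and 4.88 ± 1.24 CPM in knockdown cultures (SD, n = 3), and its groups overlapped. Exons of other genes overlap 42.8% of the exonic bases of ATF7, among them the readthrough gene ATF7-NPFF, and 30.4% of those of PPM1B.

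ATF7 fell short of the fold threshold when replicate 1 (0.246) or 3 (0.20) of the controls was left out. It also did so without replicate 1 (0.24) of the knockdowns and with no filter on low counts (0.249). DUSP8 missed only the threshold on p in the edgeR test without replicate 3 of the controls (0.46, adjusted p = 0.102). The same held without replicate 1 (0.44, adjusted p = 0.109) or 2 (0.51, adjusted p = 0.0514) of the knockdowns. DUSP2 missed both thresholds without replicate 1 (-0.20) of the controls or replicate 2 (-0.22) of the knockdowns, and under library size scaling (-0.23). It missed only that on p without replicate 2 of the controls (-0.30, adjusted p = 0.0564) or replicate 3 of the knockdowns (-0.28, adjusted p = 0.0525).

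**Figure D5:**
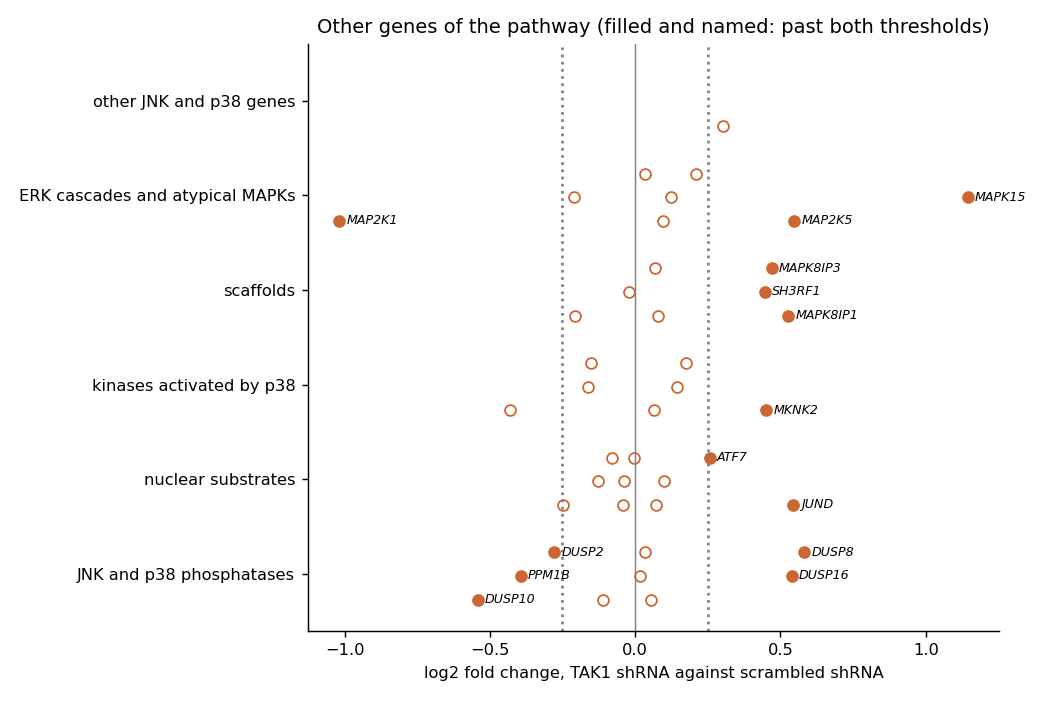
Log2 fold change (horizontal axis) of the tested pathway genes outside the members by list, 1 of the 43 not shown, with dotted lines at the fold threshold and a small vertical offset for legibility. Filled, named points passed both thresholds, with MAP2K1 lowest at -1.02 and MAPK15 highest at 1.15.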

How the data were processed

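Poly(A)-enriched RNA of 3 control (scrambled shRNA) and 3 TAK1 knockdown RD cultures was sequenced as 75-base paired-end reads. The authors deposited raw counts per gene symbol, which came from bases called with CASAVA and reads cleaned of adaptors and low quality, then aligned with STAR to GRCh38. The counter, annotation release and use of strand are not given in the sources used here. Groups came from the sample titles.

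Counts were compared with edgeR 4.0.16 in R 4.3.3, using default filtering (filterByExpr), TMM scaling and quasi-likelihood testing over all 15935 tested genes, with Benjamini-Hochberg adjustment and the thresholds given in the study's methods. Standard errors were derived from the log2 fold change and its F statistic, and intervals are 95%. The common biological coefficient of variation was 5.67%, and among the members MAP2K6 and MAPK11 had the lowest counts. DESeq2 1.42.0, limma voom 3.58.1, other scalings, filters and fold thresholds, a block for the replicate number and fits without single cultures were alternatives. The edgeR, DESeq2 and voom steps were tested on simulated counts. No pair of replicates agreed within sampling noise (chi-square divided by its degrees of freedom, 2.86 to 8.67).

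Levels per kilobase used canonical transcript length, with merged exon length added after the data were seen. Positions, lengths, exon overlaps and repeated 75-base windows came from GENCODE 44 and hg38. Named were all members, MAP3K7, MAPK10, MAPK13, up to 4 called genes per pathway list with the largest absolute log2 fold change, and the 3 genes most correlated with the member of largest absolute change. The members and lists were chosen with earlier results of these data known. Of the genes so named, 2 are not reported here. No set test was made.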

Additional observations from a re-analysis of the deposited data

How the results depend on the processing

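Of 144 values of the 9 members under 16 alternatives each, 122 kept their direction or stayed uncalled and on the same side of the thresholds, 10 lost and 12 gained a call, and 0 called values changed sign. MAP3K7 stayed between -1.36 and -1.25 on the log2 scale. MAPK14, uncalled throughout, lay between -0.022 and 0.056. The fold threshold set many of the counts. At 0.5, 735 genes were called higher and 680 lower, 0 and 0 members, and 6 and 2 pathway genes. With no fold threshold, 2734 genes, 3 members and 9 pathway genes were called lower. With no filter on low counts 2 members were called lower, and with scaling by library size alone 3 pathway genes were. The latter scaling gave 2376 higher and 1404 lower genes, so that 62.9% of calls were upward against 51.0% as reported, and moved the median of all genes by 0.048. With each culture left out in turn, members called lower ran from 0 to 2 and pathway genes called lower from 3, without replicate 2 of the knockdown cultures, to 6. The lowest member count came without replicate 3 of the control cultures and the highest without replicate 3 of the knockdown cultures. For 16 pathway genes, namely MAPK13 and those called as reported, 235 of 256 values kept their call or stayed uncalled and 21 lost it. All but MAPK13 were called to begin with, so they could lose a call but not gain one. The other tested pathway genes were not followed singly, and with no filter on low counts 7 pathway genes were called lower. The causes were not tested.

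With the replicate number as a block, 4 members were called higher, since MAP2K6 passed (0.61, adjusted p = 0.013), and 1 was called lower, and the counts over all genes were 1942 higher and 1848 lower. Deviations of same-numbered cultures from their group means correlated at 0.037, 0.036 and 0.017 over the tested genes. These values were small, so the numbers were not taken to pair the cultures. Control replicates 1 and 2 correlated best with the knockdown culture of their own number, and control replicate 3 with knockdown replicate 2 (0.019). MAP2K6 and MAPK11, with under 170 counts in each library, had the widest intervals of the members. The control values of MAP2K6 also spread widely (2.81 ± 1.24 CPM, SD, n = 3), and the parts of depth and of this spread in its interval were not tested.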
